A study of Homo sapiens with 6 samples.

Results

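The laminin chain genes encode the alpha, beta and gamma subunits of laminins, the large cross-shaped proteins that cells secrete into basement membranes. The 9 genes described here are LAMA1, LAMA2, LAMA3, LAMA4, LAMA5, LAMB1, LAMB2, LAMB3 and LAMC1. They were chosen by name, with earlier results of these data known, and found by Ensembl identifier among the 63086 genes of the count table. RNA was sequenced from the established human melanoma cell line A375 in 2 genotypes. The DUS1L knockout group had 3 libraries from cells edited with CRISPR/Cas9 at DUS1L, a gene for a tRNA dihydrouridine synthase, and then selected as clones. The wild-type group had 3 libraries from A375 cells grown in parallel with no DUS1L targeting, and the comparison asks which transcripts differ between them. All cells were kept in DMEM with serum and antibiotics. The submitters call the libraries biological replicates, but the number of clones is not given in the sources used here. What the loss of DUS1L does and what a clone brings by itself therefore cannot be told apart, and every p-value rests on how far libraries of 1 genotype differ.

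A laminin is built inside the cell from 1 alpha, 1 beta and 1 gamma chain wound into a coiled coil, and its name lists the chain numbers, so laminin 411 holds the products of LAMA4, LAMB1 and LAMC1. Beta and gamma chains pair first, and the alpha chain is needed for the trimer to be secreted. The end of the alpha chain carries the globular domains that bind integrins and dystroglycan, while the short arms join laminins into a network that nidogen links to type IV collagen. Melanoma cells, like the melanocytes they come from, meet laminins in the skin, where laminins with the LAMA3 and LAMA5 chains are known parts of the basement membrane under the epidermis and laminins with the LAMA4 chain surround blood vessels.

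The start regions of LAMB3 and LAMC1 are shown because these genes moved in opposite directions and because their RefSeq start coincides with the start of the GENCODE gene. Each line gives the 250 bases before the start, 5′ to 3′ on the gene's strand, from RefSeq (GRCh38.p14), at chr1:209652426-209652675 (minus strand) for LAMB3 and chr1:183023170-183023419 (plus strand) for LAMC1. Capitals mark matches to the GC box (GGGCGG on either strand) and, in LAMB3 alone, to the NF-kB consensus, whose matches begin 59, 11 and 10 bases before the start, the last 2 of them overlapping.
LAMB3: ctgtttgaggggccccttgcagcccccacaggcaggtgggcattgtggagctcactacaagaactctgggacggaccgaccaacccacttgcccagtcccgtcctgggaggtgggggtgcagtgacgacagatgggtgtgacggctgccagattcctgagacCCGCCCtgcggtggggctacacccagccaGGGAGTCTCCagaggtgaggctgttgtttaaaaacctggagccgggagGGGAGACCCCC
LAMC1: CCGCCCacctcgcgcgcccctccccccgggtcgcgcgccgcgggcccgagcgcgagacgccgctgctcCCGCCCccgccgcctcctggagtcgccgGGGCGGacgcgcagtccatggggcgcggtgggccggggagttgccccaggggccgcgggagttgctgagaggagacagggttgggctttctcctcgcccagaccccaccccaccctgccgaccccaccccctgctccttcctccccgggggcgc
The GC box was present once in LAMB3 and 3 times in LAMC1, and in 42.6% of all 35116 windows of the same length. The NF-kB consensus was present in 9.96% of all windows, and the AP-1 motif (TGANTCA), in 6.57% of them, was in neither sequence. RefSeq lists 2 further starts of LAMB3 inside the gene or overlapping this window, and the one farthest downstream held 1 AP-1 match and no NF-kB match. Windows were found for 8 of the 9 genes. The windows of LAMA2 and LAMA4 held none of the 3 motifs, that of LAMA5 held 5 GC boxes, and that of LAMB1 4. The window of LAMA3 held 2 AP-1 matches and 1 GC box, and that of LAMB2 held 1 GC box. For LAMA3, LAMA4, LAMB1 and LAMB2 the RefSeq start differs from the start of the GENCODE gene. These letters describe the windows and do not show that a factor binds there.

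The 6 libraries held between 17121307 and 18861493 counts after rounding. DUS1L itself was lower in the knockout libraries, at 55.3, 54.6 and 53.1 CPM (counts scaled to a common library size), against 79.8, 75.6 and 76.9 CPM in wild-type libraries (log2 fold change -0.51, SE 0.06, edgeR adjusted p = 1.7e-06). Edited bases cannot be seen in counts per gene. The 8 melanocyte lineage markers summed to 478.9 to 545.4 CPM in knockout and 611.1 to 647.4 CPM in wild-type libraries, mostly SOX10, which was called lower. S100B was also called lower (log2 fold change -0.90, edgeR adjusted p = 0.000325), while MITF and TYRP1 were not called (edgeR adjusted p = 0.586 and 0.39). TYR was at 0 in all libraries, and DCT, MLANA and PMEL had fewer than 10 counts in each. Markers of other cell types that a culture could hold were also summed. The 7 fibroblast markers summed to 87.0 to 185.9 CPM in knockout and 44.2 to 109.3 CPM in wild-type libraries, mostly COL1A1, and 1 of them, PDGFRB, was called lower. The 7 keratinocyte markers summed to 58.5 to 68.3 CPM in knockout and 58.9 to 67.2 CPM in wild-type libraries, mostly KRT10, with KRT1 and KRT5 at 0 in all libraries. The 6 endothelial markers summed to 2.12 to 4.15 CPM in knockout and 2.98 to 3.83 CPM in wild-type libraries, with none at 0 in all of them. The 6 leukocyte markers summed to 31.4 to 34.9 CPM in knockout and 24.9 to 26.1 CPM in wild-type libraries, mostly CD68, with CD3E at 0 and ITGAM called higher. The 5 muscle and Schwann cell markers summed to 41.3 to 45.2 CPM in knockout and 19 to 21.4 CPM in wild-type libraries, mostly ACTA2, which was called higher, with PMP2 at 0. The part of other cells in the laminin results was not tested.

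Most laminin chain transcripts were lower in DUS1L knockout cells, and LAMB3 was higher. Of the 9 genes, 5 fell (LAMA2, LAMA4, LAMA5, LAMB1 and LAMC1), 1 rose (LAMB3) and 3 were not called (LAMA1, LAMA3 and LAMB2) at an adjusted p under 0.05 in edgeR's quasi-likelihood test. Across all 16046 genes tested, 20.7% were called lower, 20.5% higher and 41.2% in either direction. The median log2 fold change was -0.44 over the 9 genes and -0.004 over all genes tested. Beyond 1.5-fold, as tested by edgeR's glmTreat, LAMA4 passed as lower and LAMB3 as higher, against 1.27% of all genes lower, 2.31% higher and 3.58% in either direction. The libraries of the 2 genotypes did not overlap for 7 of the 9 genes, against 51.1% of all genes tested. Because the 9 genes were chosen with earlier results of these data known, these counts are a description. No member had fewer than 16 counts in any library, so each passed the low-count filter in both genotypes. In RNA from a whole culture, fewer cells with a transcript and less of it per cell cannot be told apart.

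**Figure D1:**
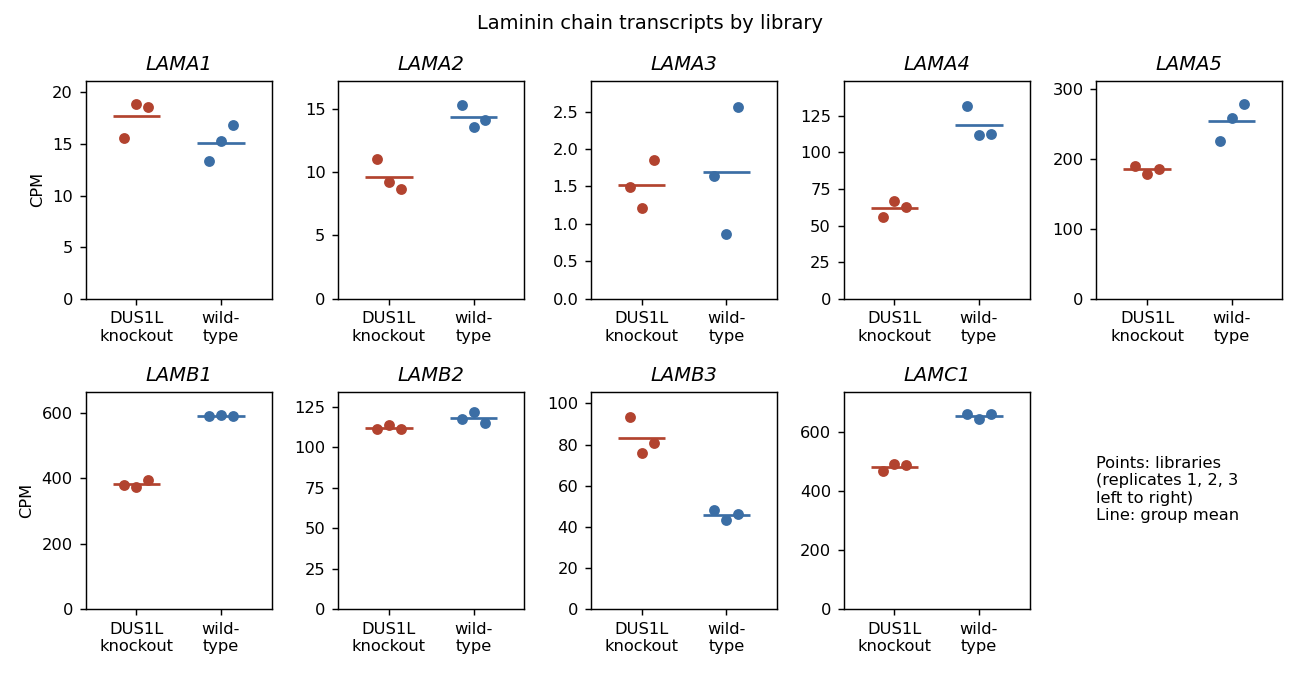
Each panel shows 1 laminin chain gene, with CPM on a linear axis from 0, DUS1L knockout libraries on the left and wild-type libraries on the right; points are libraries and the line is the group mean. LAMA2, LAMA4, LAMA5, LAMB1 and LAMC1 lie lower in all 3 knockout libraries and LAMB3 lies higher, while LAMA1 and LAMA3 overlap.

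Among the alpha chains, which set what receptor a laminin binds, LAMA5 and LAMA4 were the most abundant and both fell. LAMA4 (ENSG00000112769.20, chromosome 6 from 112107931 to 112254939, minus strand, GRCh38) encodes the alpha chain of vessel and mesenchymal laminins, which has shortened arms. Its level was 56.1, 66.5 and 62.6 CPM in knockout libraries, against 131.5, 111.6 and 112.9 CPM in wild-type libraries. The groups were far apart, with the highest knockout library below the lowest wild-type library. This was the strongest fall among the 9 genes, to 0.52 of the wild-type level (log2 fold change -0.94, SE 0.07, edgeR adjusted p = 1.34e-08, adjusted p = 0.000796 for a change past 1.5-fold).

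LAMA5 (ENSG00000130702.15, chromosome 20 from 62307955 to 62367312, minus strand) encodes the alpha chain of laminins 511 and 521, the widespread laminins of adult basement membranes. It stood at 190.2, 178.6 and 185.8 CPM in knockout libraries, against 224.6, 258.3 and 277.6 CPM in wild-type libraries. Wild-type replicate 1 was the nearest to the knockout values, but the groups did not overlap. The log2 fold change was -0.46 (SE 0.07, edgeR adjusted p = 2.13e-05), and between -0.53 and -0.38 when any 1 library was left out. The gene overlaps ADRM1 on the opposite strand over 908 bases, and how reads there were assigned is not given in the sources used here. ADRM1 had a log2 fold change of 0.08 (adjusted p = 0.256).

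LAMA2 (ENSG00000196569.14, chromosome 6 from 128883138 to 129516566, plus strand), the alpha chain of the muscle and peripheral nerve laminins 211 and 221, was present at a low level. It stood at 11.0, 9.23 and 8.67 CPM in knockout libraries, against 15.3, 13.6 and 14.1 CPM in wild-type libraries. The groups did not overlap, and it fell by 0.57 on the log2 scale (SE 0.13, edgeR adjusted p = 0.00116).

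The other alpha chains were not called. LAMA1 (ENSG00000101680.16, chromosome 18 from 6941742 to 7117797, minus strand), the alpha chain of the embryonic laminin 111, was at 15.6, 18.9 and 18.6 CPM in knockout libraries, against 13.3, 15.3 and 16.8 CPM in wild-type libraries. The groups overlapped, since knockout replicate 1 lay below wild-type replicate 3 (log2 fold change 0.23, SE 0.12, edgeR adjusted p = 0.13). The 95% interval ran from 0.997-fold to 1.37-fold. LAMA3 (ENSG00000053747.17, chromosome 18 from 23689453 to 23956222, plus strand), the alpha chain of epidermal laminin, had few counts and was measured imprecisely. It had 28, 21 and 33 counts in knockout libraries, against 28, 16 and 44 counts in wild-type libraries. The spread within the wild-type group exceeded the difference between the groups (log2 fold change -0.15, SE 0.38, edgeR adjusted p = 0.787). The 95% interval of LAMA3 ran from 0.541-fold to 1.51-fold, so a fall or a rise within that range is not excluded. Its short and long transcript forms, which start at different promoters, are not separated in gene counts.

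The beta chains split 3 ways. LAMB1 (ENSG00000091136.15, chromosome 7 from 107923799 to 108003213, minus strand), the common beta chain that pairs with most alpha chains, was at 378.6, 373.7 and 396.6 CPM in knockout libraries, against 589.5, 593.4 and 589.4 CPM in wild-type libraries. The wild-type libraries were nearly equal and every knockout library lay well below them. The log2 fold change of -0.63 (SE 0.05, edgeR adjusted p = 3.1e-09) had the smallest p of the 9 genes, although it did not pass the test for a change past 1.5-fold (adjusted p = 0.725). LAMB1 overlaps DLD on the opposite strand over 7932 bases, and DLD had a log2 fold change of -0.18 (adjusted p = 0.022).

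LAMB2 (ENSG00000172037.14, chromosome 3 from 49121114 to 49133118, minus strand), the beta chain of neuromuscular junctions and kidney glomeruli, was at 111.4, 113.9 and 111.4 CPM in knockout libraries, against 117.3, 121.7 and 115.1 CPM in wild-type libraries. The knockout values were all slightly lower without a call (log2 fold change -0.07, SE 0.05, edgeR adjusted p = 0.306). Its interval, from 0.883-fold to 1.02-fold, does not reach the fall measured for LAMB1. The pseudogene LAMB2P1, which carries its name, had at most 2 counts in a library.

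LAMB3 (ENSG00000196878.15, chromosome 1 from 209614870 to 209652425, minus strand) encodes the truncated beta chain that is known from the laminin anchoring the epidermis. Its level was 93.6, 75.9 and 80.9 CPM in knockout libraries, against 48.1, 43.6 and 46.5 CPM in wild-type libraries. Every knockout library stood above every wild-type library, with knockout replicate 1 the highest. The gene rose 1.81-fold (log2 fold change 0.86, SE 0.08, edgeR adjusted p = 3.27e-08). It passed the test for a change past 1.5-fold (adjusted p = 0.00795), a call that was lost without knockout replicate 1 (adjusted p = 0.102), without wild-type replicate 2 (adjusted p = 0.0583), with DESeq2 (adjusted p = 0.0775) and with limma-voom (adjusted p = 0.0884).

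LAMC1 (ENSG00000135862.6, chromosome 1 from 183023420 to 183145592, plus strand), the gamma chain shared by most laminins, was the most abundant of the 9 transcripts per kilobase of merged exons, while per kilobase of the longest transcript LAMB1 was above it in wild-type libraries, at 87.7 ± 0.338 against 82.6 ± 1.06 CPM per kilobase (SD, n = 3 each). It stood at 468.8, 492.2 and 488.7 CPM in knockout libraries, against 660.0, 645.6 and 660.3 CPM in wild-type libraries. The groups were well apart, and the log2 fold change was -0.44 (SE 0.05, edgeR adjusted p = 3.24e-07). Its antisense gene LAMC1-AS1 had no counts.

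**Figure D2:**
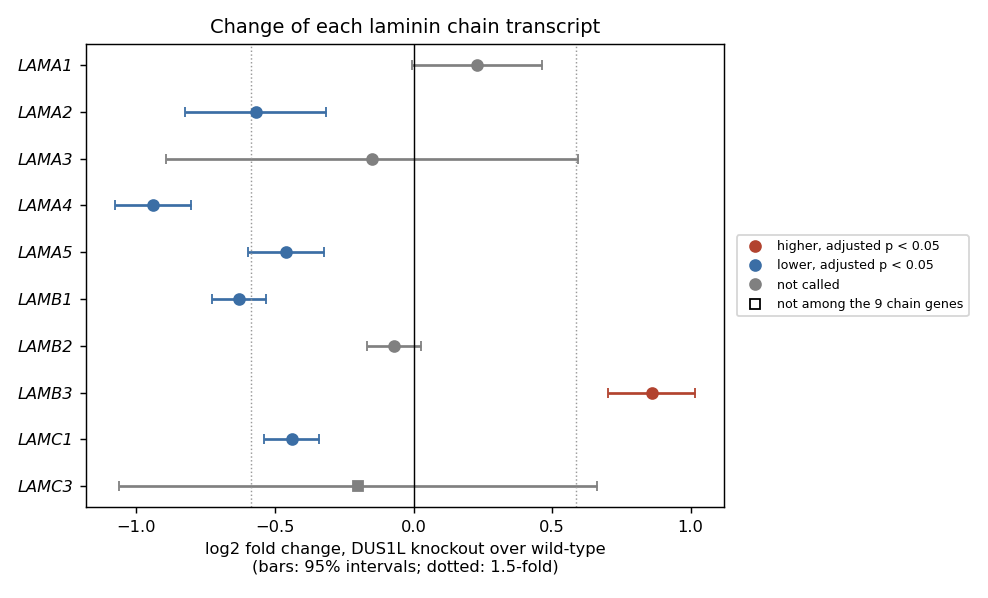
Log2 fold change of DUS1L knockout over wild-type on the horizontal axis for the 9 chain genes (circles) and for LAMC3 (square), with bars for 95% intervals and dotted lines at 1.5-fold. LAMA4 at -0.94 and LAMB3 at 0.86 are the extremes, and the bars of LAMA1, LAMA3, LAMB2 and LAMC3 cross 0.

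Further laminin chains were barely expressed or not called. LAMC3, a gamma chain found in few trimers, had 18, 9 and 13 counts in knockout libraries, against 11, 17 and 17 counts in wild-type libraries (edgeR adjusted p = 0.742). LAMB4 had at most 4 counts in a library and was not tested.

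Within a class, the proportions of some chains differed between the genotypes, given here as a description without a test. The shares overlapped between the groups for LAMA2 and LAMA3 by either length, and for LAMB2 by merged exons. Levels of different genes were compared per kilobase of exon, in CPM per kilobase, with all annotated exons of a gene merged. Because merged exons make genes with many minor transcripts seem long, each share is also given per kilobase of the longest transcript. LAMB3 made up 32.7% ± 2.51 of the beta chain transcripts in knockout and 16.8% ± 0.845 in wild-type libraries (SD, n = 3 each), or 20.2% and 8.98% by the longest transcript. LAMB1 made up 37.5% ± 1.48 in knockout and 54.0% ± 0.325 in wild-type libraries (SD, n = 3 each), or 59.2% and 73.6% by the longest transcript. The direction of both shifts was the same by either length, whereas the order of LAMB1 and LAMB3 was not clear in knockout cells by merged exons, where their levels were 20.6 ± 0.649 and 18.0 ± 1.96 CPM per kilobase (SD, n = 3 each). LAMB2 made up 29.8% ± 1.36 in knockout and 29.2% ± 0.734 in wild-type libraries (SD, n = 3 each), or 20.6% and 17.4% by the longest transcript.

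Among alpha chains, LAMA5 made up 65.8% ± 2.38 of the class in knockout and 60.5% ± 4.24 in wild-type libraries (SD, n = 3 each), or 58.8% and 53.2% by the longest transcript. By merged exons the LAMA5 groups nearly met, at 63.5% in knockout replicate 2 and 63.5% in wild-type replicate 3, while wild-type replicate 1 was lowest at 55.7%. LAMA4 made up 26.2% ± 2.10 in knockout and 34% ± 4.33 in wild-type libraries (SD, n = 3 each), or 31.0% and 39.5% by the longest transcript. LAMA1 followed at 5.67% ± 0.546 in knockout and 3.25% ± 0.249 in wild-type libraries (SD, n = 3 each), or 6.19% and 3.49% by the longest transcript. LAMA2 made up 1.86% ± 0.254 in knockout and 1.86% ± 0.171 in wild-type libraries (SD, n = 3 each), or 3.52% and 3.46% by the longest transcript. LAMA3 made up 0.532% ± 0.111 in knockout and 0.395% ± 0.185 in wild-type libraries (SD, n = 3 each), or 0.518% and 0.377% by the longest transcript. The order LAMA5, LAMA4, LAMA1, LAMA2, LAMA3 held in the group means of both genotypes by merged exons. By the longest transcript LAMA1 and LAMA2 lay within their spread of each other in wild-type cells, at 1.46 ± 0.167 and 1.44 ± 0.088 CPM per kilobase (SD, n = 3 each).

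**Figure D3:**
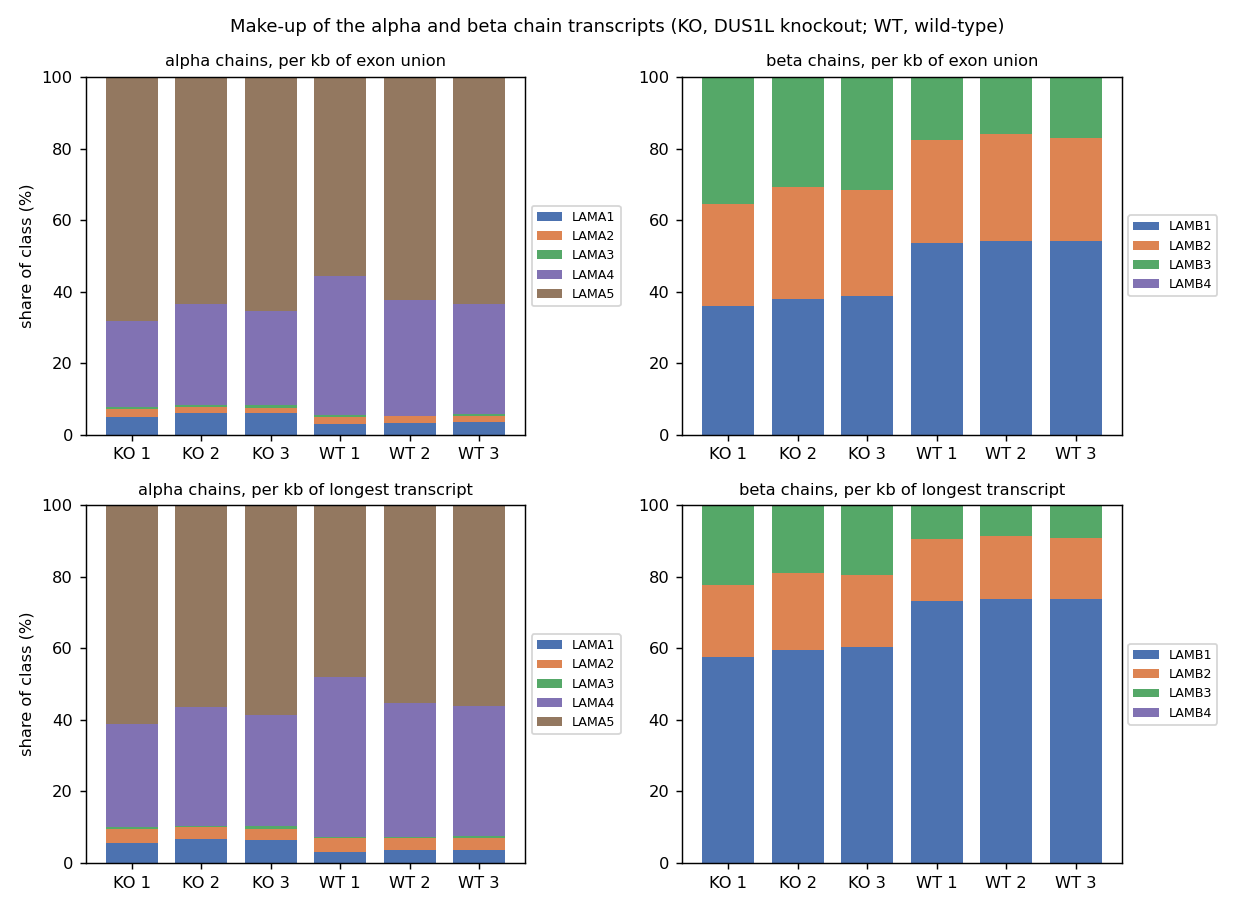
Stacked bars give each alpha chain (left) and beta chain (right) as a percentage of its class in each library, knockout libraries 1 to 3 first and wild-type libraries 1 to 3 after them, per kilobase of merged exons (top) and of the longest transcript (bottom). The LAMB3 share is larger in every knockout library, and the LAMB1 and LAMA4 shares are smaller.

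Summed over a class, alpha chains reached 19.7 ± 0.181 CPM per kilobase in knockout and 29.3 ± 1.23 in wild-type libraries (SD, n = 3 each), so 67.2% of the wild-type sum was left. LAMC1 alone stood at 57.2 ± 1.49 in knockout and 77.6 ± 0.997 CPM per kilobase in wild-type libraries (SD, n = 3 each). Beta chains summed to 54.9 ± 1.84 in knockout and 58.9 ± 0.358 CPM per kilobase in wild-type libraries, 93.3% of the wild-type sum, or 80.6% by the longest transcript, since that length gives LAMB1 more weight. The alpha chain sum was below the beta chain sum and below LAMC1 in every library by either length.

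Ratios between chains within a library were taken for 4 pairs picked after their values were seen. The log2 ratio of LAMB3 to LAMB1 counts was -2.02, -2.30 and -2.29 in knockout libraries, against -3.61, -3.77 and -3.66 in wild-type libraries, which is 2.79-fold higher in knockout cells. The log2 ratio of LAMB1 to LAMB2 was 1.77, 1.71 and 1.83 in knockout libraries, against 2.33, 2.29 and 2.36 in wild-type libraries. LAMA1 relative to LAMA2 was 1.75-fold higher, and LAMA4 relative to LAMA5 was at 0.711 of the wild-type ratio. In all 4 pairs the groups did not overlap, which choosing the pairs on these values favoured. The exact two-sided permutation p was 0.1 for each, the smallest that 3 against 3 libraries allow. It cannot support pairs picked in this way, so the ratios are a description.

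Set against 13 known laminin trimers, the changed chains fell into 3 patterns. In laminins 211, 411 and 511, all 3 chain transcripts fell. In 6 others, laminins 111, 221, 213, 311, 421 and 521, 2 of the 3 chains fell, and in laminins 121, 321, 423 and 523, 1 chain fell. The list of 13 does not include trimers that hold LAMB3, the chain gene that rose, so these patterns do not describe them. RNA levels do not show how much of a trimer is assembled or secreted.

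For each trimer, the chain with the lowest level per kilobase was noted as a description. A chain shared by several trimers entered each of them at its full level, so the lowest chain need not be the one that limits a trimer. This lowest chain was an alpha chain in every library for 9 of the 13 trimers, and LAMC3 in the 3 trimers that hold it. In laminin 521 it was LAMA5 in the knockout libraries, and LAMA5 or LAMB2 in the wild-type libraries, where both were close. The lowest chain of laminin 511 was LAMA5, at 12.9 ± 0.409 CPM per kilobase in knockout and 17.7 ± 1.88 in wild-type libraries (SD, n = 3 each). For laminin 411 it was LAMA4, at 5.15 ± 0.439 in knockout and 9.90 ± 0.932 CPM per kilobase in wild-type libraries (SD, n = 3 each). For laminin 211 it was LAMA2, at 0.365 ± 0.0467 in knockout and 0.543 ± 0.0332 CPM per kilobase in wild-type libraries (SD, n = 3 each). These 3 values lay lower in every knockout library.

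In laminins 311 and 321 the lowest chain was LAMA3, at 0.105 ± 0.0224 CPM per kilobase in knockout and 0.117 ± 0.0584 in wild-type libraries (SD, n = 3 each), with overlapping groups. In laminins 111 and 121 it was LAMA1, at 1.12 ± 0.115 in knockout and 0.954 ± 0.109 CPM per kilobase in wild-type libraries (SD, n = 3 each), also with overlapping groups. LAMB3, the beta chain that pairs with LAMA3 in the epidermis, was at 18.0 ± 1.96 in knockout and 9.91 ± 0.498 CPM per kilobase in wild-type libraries (SD, n = 3 each), so it stood far above LAMA3 in both genotypes.

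**Figure D4:**
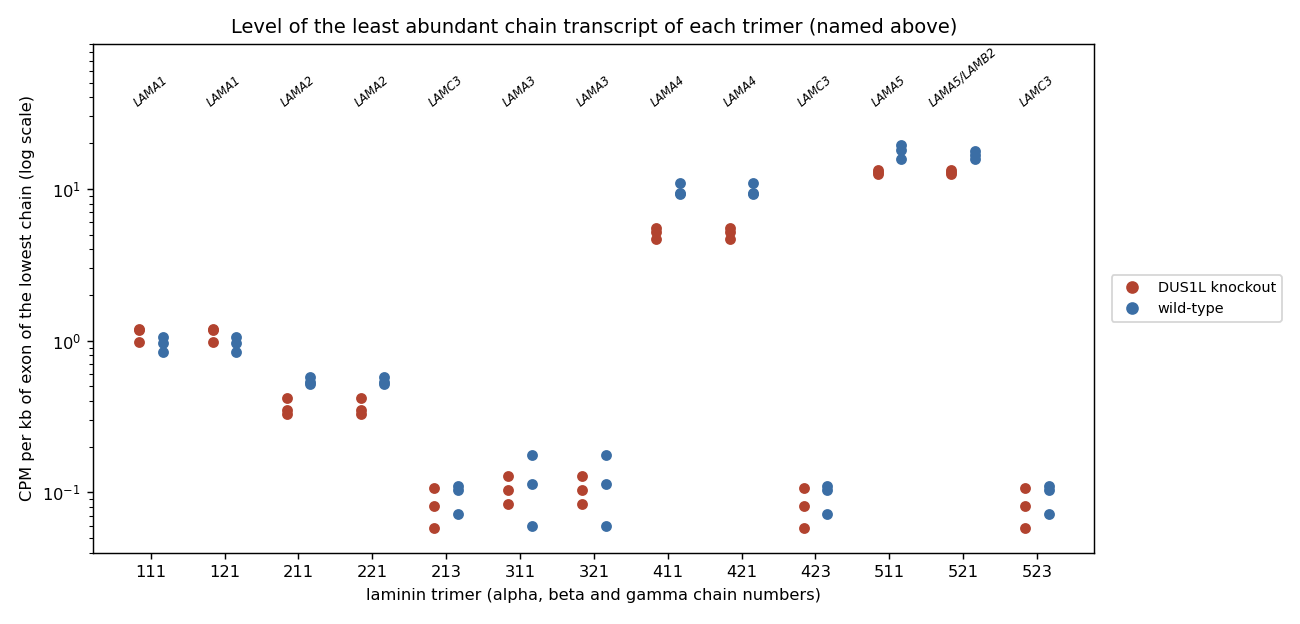
For each of 13 laminin trimers on the horizontal axis, points give the level in each library of its least abundant chain transcript, named above, in CPM per kilobase of merged exons on a log axis, knockout libraries left and wild-type libraries right. Laminins 511, 521, 411 and 421 have the highest values and lie lower in knockout cells, whereas laminins 311 and 321 have LAMA3 as their lowest chain and overlap.

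The patterns closest to the members were sought among tested genes that encode proteins and average at least 5 CPM, as the Euclidean distance of centred log2 CPM over the 6 libraries. The 3 nearest to LAMB3, the member that rose, were ZNF79, SNAP23 and NFKB2, at distances of 0.12, 0.146 and 0.154. The 3 nearest to LAMB1, the falling member with the smallest p, were RASSF8, GLI3 and KCNAB2, at distances of 0.0542, 0.0634 and 0.0709. Those nearest to LAMB3 had log2 fold changes of 0.87, 0.87 and 0.92, and those nearest to LAMB1 had -0.62, -0.60 and -0.61. Similar fold changes follow from choosing genes by distance over the same 6 libraries. Shared regulation was not tested.

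Of 15 laminin receptor genes, a list chosen with earlier results of these data known, 10 fell, none rose and 5 were not called, against 20.7% of all genes called lower and 20.5% higher. The median log2 fold change of the 15 was -0.31. The integrin chain ITGA6, which pairs with ITGB1 or ITGB4 to bind laminins such as 511 and 111, was at 191.3, 210.5 and 210.8 CPM in knockout libraries, against 396.3, 364.1 and 360.3 CPM in wild-type libraries. It had the strongest fall of the list and was the 1 receptor past 1.5-fold (log2 fold change -0.87, SE 0.06, edgeR adjusted p = 2.45e-10, adjusted p = 0.000307 for a change past 1.5-fold). ITGA1, which binds both collagens and laminins, fell by 0.58 on the log2 scale, and ITGA3, the partner of ITGB1 on laminin 511, fell by 0.46. CD151, the tetraspanin that sits with these integrins, fell by 0.45, and DAG1, which encodes dystroglycan, fell by 0.42. ITGB1 fell by 0.35, SDC2 by 0.30 and RPSA, a ribosomal protein also described as a laminin receptor and rich in pseudogene copies, by 0.16. The SDC2 call was lost without knockout replicate 1 (edgeR adjusted p = 0.054) and the RPSA call without wild-type replicate 2 (edgeR adjusted p = 0.0853). ITGB4 and BCAM, a receptor for LAMA5, were called lower at 10.4 ± 1.37 and 16.4 ± 0.235 CPM in knockout cells, against 13.4 ± 2.32 and 20.3 ± 2.33 CPM in wild-type cells (SD, n = 3 each). The groups overlapped for ITGB4. The ITGB4 call was lost in 8 of 15 alternatives, namely DESeq2, limma-voom, the fit that was not robust, library size alone and 4 of the single libraries left out, with adjusted p up to 0.183. The BCAM call was lost in 6 of 15, namely library size alone and 5 of the single libraries left out, with adjusted p up to 0.126. ITGA2, ITGA7, MCAM, SDC1 and SDC4 were not called. SDC4 had a log2 fold change of 0.14 (adjusted p = 0.0623) and was called higher with library size alone as the scaling and without knockout replicate 1 or 3. SDC1 had a log2 fold change of -0.16 (edgeR adjusted p = 0.127). It was called lower with no low-count filter and without knockout replicate 2 or wild-type replicate 1.

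Of 23 other basement membrane components, a list also chosen with earlier results of these data known, 19 were tested. Among these 10 fell, 1 rose and 8 were not called, with a median log2 fold change of -0.36, against 20.7% of all genes called lower and 20.5% higher. The number called lower was 7 with library size alone and also 7 without wild-type replicate 2. The NID2 call was lost in 8 of 15 alternatives (adjusted p up to 0.175) and the COL18A1 call in 4 (up to 0.133). FBLN1, whose groups overlapped, lost its call in 7 (adjusted p up to 0.181). NID1, the nidogen that links the LAMC1 short arm to type IV collagen, was at 185.8, 181.6 and 185.4 CPM in knockout libraries, against 272.8, 257.3 and 263.1 CPM in wild-type libraries. It fell by 0.52 on the log2 scale (SE 0.05, edgeR adjusted p = 7.08e-08), close to the change of LAMC1. The type IV collagen pair COL4A1 and COL4A2 fell by 0.48 and 0.43, and SPARC, a collagen-binding matrix protein, by 0.36. FREM2 and FREM1, of the complex that holds the epidermis to the dermis in development, fell by 1.16 and 1.04 at low levels. FRAS1, of the same complex, was not called (log2 fold change 0.07, edgeR adjusted p = 0.782). It was at 5.42 ± 0.339 CPM in knockout and 5.15 ± 0.749 CPM in wild-type cells (SD, n = 3 each). TINAGL1, a secreted matrix protein, was the 1 that rose, at 144.6 ± 6.77 CPM in knockout and 91.6 ± 8.53 CPM in wild-type cells (SD, n = 3 each, log2 fold change 0.66, edgeR adjusted p = 1.17e-07). The heparan sulfate proteoglycan genes HSPG2 and AGRN, whose products bind laminin, were not called (log2 fold changes -0.06 and 0.10).

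**Figure D5:**
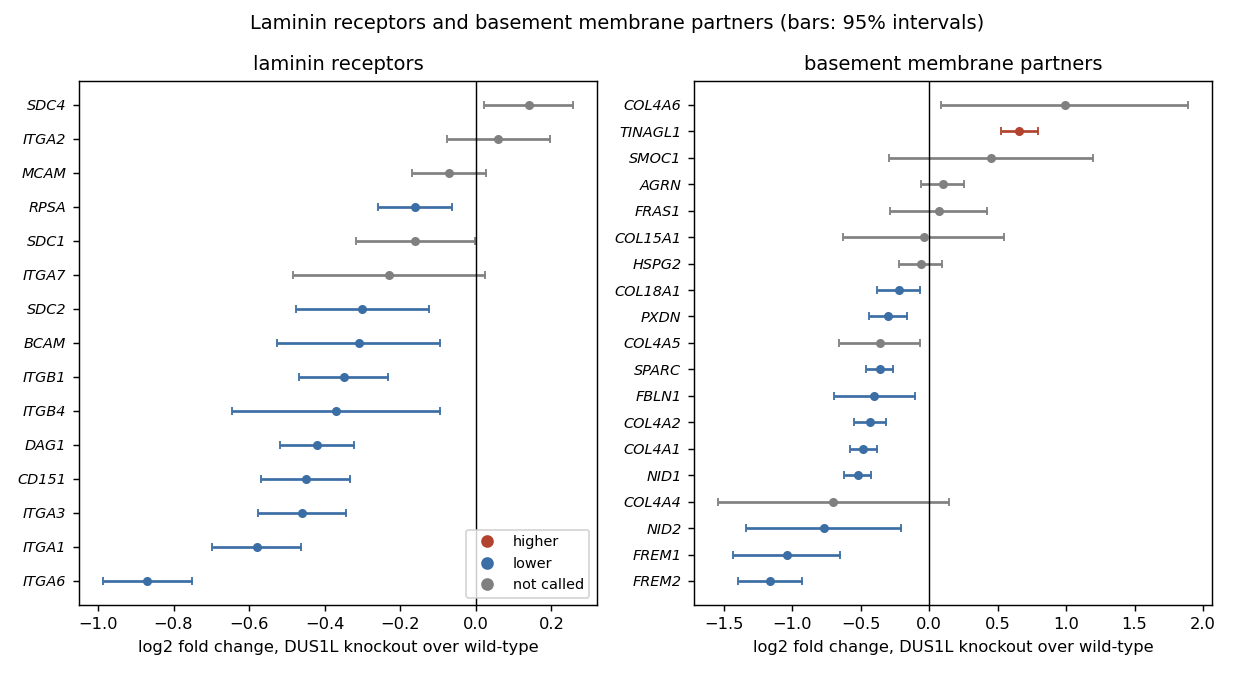
Log2 fold changes of DUS1L knockout over wild-type for the tested laminin receptors (left) and basement membrane partners (right), with bars for 95% intervals, coloured by call. ITGA6 at -0.87 is the lowest receptor, and TINAGL1 at 0.66 is the 1 partner called higher.

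The other lists, also chosen with earlier results of these data known, held genes called in both directions. The enzymes that build the laminin-binding sugar of dystroglycan gave 1 higher and 3 lower of 13 tested among 14 listed (median log2 fold change -0.04), no larger a share than the 41.2% of all genes called in either direction. B4GAT1, which primes that sugar chain, was at 19.8, 24.1 and 21.2 CPM in knockout libraries, against 38.7, 38.6 and 35.2 CPM in wild-type libraries, a fall of 0.79 on the log2 scale (SE 0.09, edgeR adjusted p = 7.14e-07). POMGNT1 and POMT2 fell by 0.33 and 0.31, the POMT2 call being lost without knockout replicate 3 (edgeR adjusted p = 0.0732), and B3GALNT2 had a log2 fold change of 0.42 (edgeR adjusted p = 7.06e-05). Among 13 proteases that can cut laminin chains or activate such proteases, 9 were tested, 2 rose and 3 fell (median log2 fold change 0.02), against 20.5% of all genes called higher and 20.7% lower. CTSS, the secreted lysosomal protease cathepsin S, rose to 46.9 ± 1.89 CPM in knockout cells, against 22.7 ± 0.605 CPM in wild-type cells (SD, n = 3 each, log2 fold change 1.05, edgeR adjusted p = 2.15e-09). MMP3 rose at a very low level, to 3.03 ± 1.08 CPM in knockout cells, against 0.693 ± 0.367 CPM in wild-type cells (SD, n = 3 each, edgeR adjusted p = 0.00024). The membrane-anchored protease MMP14 fell by 0.58, PLAT by 0.45 and MMP2 by 0.25. Of the 6 netrins, relatives of the laminin short arms, 4 were tested, of which NTNG1 was called lower and NTNG2 higher, at 1.53 ± 0.559 and 1.81 ± 0.27 CPM in knockout cells, against 3.81 ± 0.407 and 0.903 ± 0.255 CPM in wild-type cells (SD, n = 3 each). The NTNG2 call was lost with DESeq2, with the replicate block, with no low-count filter and without knockout replicate 1 or 3 or wild-type replicate 1 or 3 (adjusted p up to 0.0977).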

How the data were processed

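Gene-level expected counts, some of them fractional, were deposited by the authors for the 6 libraries in 1 file that records no normalization. Reads were placed on GRCh38 according to the submitters' processing notes. Which aligner, counting tool, strand setting and annotation release they used is not given in the sources used here. Paired-end libraries were made from TRIzol RNA, per the labels' protocols.

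Of 63086 identifiers, 62541 matched GENCODE release 44, which gave symbols, positions and exon lengths. Counts were rounded to whole numbers. Genes kept by filterByExpr (minimum count 10) were tested under R 4.3.3 by edgeR 4.0.16, as a quasi-likelihood fit (robust) of genotype alone on TMM-scaled libraries, and glmTreat tested for a change past 1.5-fold. P-values are two-sided and adjusted by the Benjamini-Hochberg method over the 16046 genes tested, with a threshold of 0.05. Standard errors come from the F statistic, and 95% intervals use the normal quantile of 1.96. They are narrower than the quasi-likelihood test implies. That of SDC1 ran from 0.797-fold to 0.999-fold, although its unadjusted edgeR p was 0.0656. A count of 3 corresponds to 0.159 to 0.176 CPM, which covers counting error only. The fit was tested on simulated data. No 2 libraries matched within sampling noise (chi-square per degree of freedom 3.74 or more).

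The members and lists were chosen with earlier results of these data known. The genes named are the 9 members, LAMC3, LAMB4, DUS1L, overlapping genes, the 3 nearest patterns and, by p, up to 5 called genes of each list per direction. Beyond that rule, ITGB1, SDC2, RPSA, ITGB4, BCAM, FREM1, NID2, COL18A1, FBLN1, the markers and the genes not called are named. Alternatives were DESeq2 1.42.0, limma-voom (limma 3.58.1), other scalings and filters, a fit that was not robust, a replicate block, a correction for length and GC content (mgcv 1.9.3) and leaving out each library. Some genes, and the results that need them, are not reported here.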

Additional observations from a re-analysis of the deposited data

How the results depend on the processing

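The calls of the 9 laminin chain genes were the same in each of the 15 alternatives to the quasi-likelihood fit, with 1 gene higher and 5 lower throughout, including the replicate block. Over all named and listed genes, 1004 of 1060 values kept their direction and call, 43 lost a call, 13 gained 1 and none reversed. The replicate numbers are shared by both genotypes but did not pair the libraries (correlations of deviations -0.053, -0.029 and 0.015), and with the replicate block the number of genes called higher was 3122 and of genes called lower 3119. With the block 0 netrins were called higher (netrins called higher without it: 1). The number of genes past 1.5-fold higher was 230 with DESeq2, 231 with limma-voom and 371 with edgeR, and of genes past 1.5-fold lower 110, 115 and 204; no laminin chain gene was higher past 1.5-fold with DESeq2 or limma-voom, where 0 were counted, and between 0 and 1 when single libraries were left out. With library size alone as the scaling, where the median log2 fold change of all genes was 0.041, against -0.004 with TMM, 1 receptor and 2 glycosylation genes were called higher. Under the length and GC correction 2 basement membrane partners were called higher, and with DESeq2 0 netrins were. When single libraries were left out, between 0 and 1 receptors and between 0 and 1 netrins were called higher. By the longest transcript, class shares in knockout and wild-type libraries were 3.52% and 3.46% for LAMA2, 31.0% and 39.5% for LAMA4, 58.8% and 53.2% for LAMA5, 59.2% and 73.6% for LAMB1, 20.6% and 17.4% for LAMB2, and 20.2% and 8.98% for LAMB3. Depth limits LAMA3 and LAMC3, whose counts stayed under 50 in every library.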
